A study of Mus musculus with 10 samples.

Results

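The subject is a set of 10 genes by which Müller glia, the radial support cells of the retina, keep the tissue's chemistry stable: Glul, Slc1a3, Aqp4, Kcnj10, Car2, Car14, Apoe, Clu, Dkk3 and Sox9. They were given by name and found in the count table by their GENCODE M21 symbols. All 10 were among the 57010 genes of the table and the 15539 that passed the filter on low counts. Retinas of 10 mice aged 6 to 8 weeks were taken 14 days after intravitreal delivery of a vector for green fluorescent protein (GFP), with 5 mice per vector. The vector was packaged in the capsid of adeno-associated virus 2 (AAV2-GFP) or in the capsid AAV206 (AAV206-GFP), which the study's title presents as a vector for the retinal pigment epithelium. Both groups carry a vector and a reporter, uninjected retinas were not analysed here, and the labels give no strain, sex, dose or promoter, so each difference is between the vectors only.

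Müller glia span the whole thickness of the retina and wrap its neurons and vessels. They take up glutamate and turn it into glutamine, pass potassium and water to the vitreous and the vessels, convert carbon dioxide to bicarbonate, and release lipoproteins. Loss of these functions is a known feature of reactive Müller glia, which raise Gfap and other stress genes instead. Several of the genes are not restricted to these cells: astrocytes of the nerve fibre layer also express Glul, Slc1a3, Aqp4, Apoe and Sox9, microglia express Apoe, and Car2 is also a red blood cell and oligodendrocyte gene.

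Markers of these cells were plainly detected. Each of the 10 genes had at least 195 counts in every library, and Rlbp1, the retinaldehyde-binding protein of Müller glia and pigment epithelium, averaged 264 ± 44.4 CPM in the AAV2-GFP mice and 232 ± 15.7 CPM in the AAV206-GFP mice (SD, n = 5). CPM is the count of a gene relative to its library's total, which was corrected by TMM factors (trimmed mean of M values). Total counts per library lay between 10989843 and 12752604. One AAV2-GFP library, replicate 1, stood apart in immune genes. The summed level of 11 microglia and macrophage genes was 313 CPM there. It was 27.6 to 55.1 CPM in the other AAV2-GFP libraries and 22.3 to 31.9 CPM with AAV206-GFP. All 11 had counts in at least 1 library, and 9 passed the filter on low counts.

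None of the 10 genes differed between the vectors at an adjusted p-value under 0.05 in edgeR's quasi-likelihood test, while 11.2% of all tested genes did. Of all tested genes 5.95% were higher and 5.30% lower with AAV206-GFP, and of the 10 genes 0 and 0. Log2 fold changes (AAV206-GFP against AAV2-GFP) ran from -0.37 for Apoe to 0.24 for Car14, with 8 below and 2 above 0. Their median was -0.12, beside -0.0095 over all tested genes. Without adjustment, 6 of the 10 had p-values under 0.05, beside 28.0% of all tested genes. DESeq2 placed 3 of them past an adjusted 0.05 (Slc1a3 and Kcnj10 lower, Dkk3 higher; 14.8% of all genes), and limma-voom placed 0 (10.6% of all genes). In the whole retina, fewer cells of a type and less RNA per cell cannot be told apart.

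**Figure D1:**
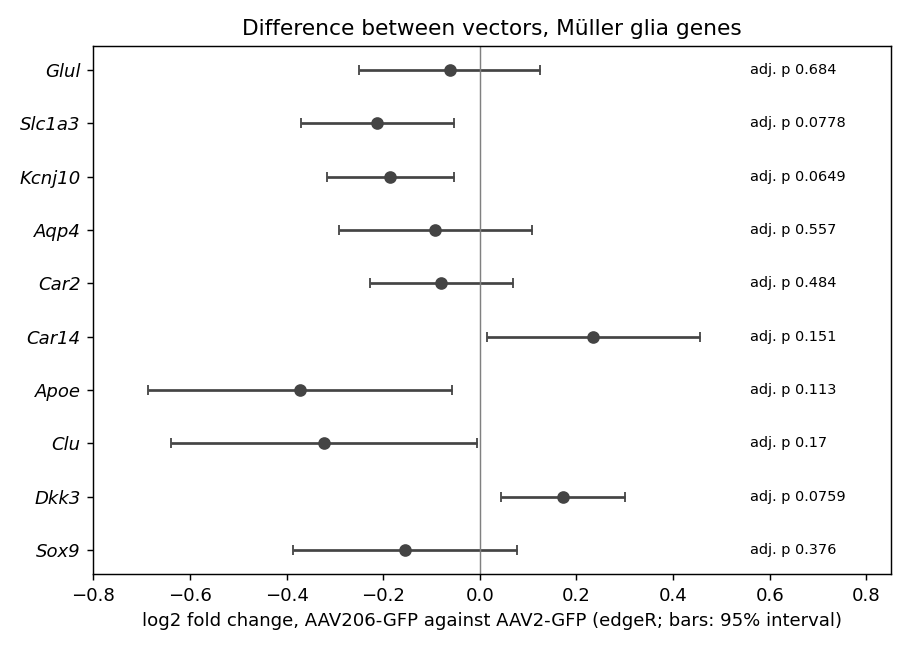
Log2 fold change of each gene, AAV206-GFP against AAV2-GFP, as points on the horizontal axis with 95% intervals that are not adjusted for the number of genes, and the edgeR adjusted p-value at the right. The points lie between -0.37 and 0.24, and no adjusted p-value is under 0.05.

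RefSeq promoter windows (GRCm38.p6, 250 bases before to 50 after the start) were at hand for 5 of the 10 genes: Glul, Slc1a3, Kcnj10, Apoe and Car14. They were searched on both strands for ACAAAG and ACAATG, core letters that factors of the SOX family recognise; Sox9 is one of the set. Of all 32851 windows of this length 28.6% hold at least 1 of them. Kcnj10 holds 1, at base 251 of its window, the first of 3 windows of Apoe holds 2, and those of Glul, Slc1a3 and Car14 hold 0. The windows of the 2 transport genes with the smallest adjusted p-values are shown, on chr1:172340960-172341259 (plus strand) and chr15:8710758-8711057 (minus strand), with the matching letters in capitals. A match describes the letters only.
Kcnj10: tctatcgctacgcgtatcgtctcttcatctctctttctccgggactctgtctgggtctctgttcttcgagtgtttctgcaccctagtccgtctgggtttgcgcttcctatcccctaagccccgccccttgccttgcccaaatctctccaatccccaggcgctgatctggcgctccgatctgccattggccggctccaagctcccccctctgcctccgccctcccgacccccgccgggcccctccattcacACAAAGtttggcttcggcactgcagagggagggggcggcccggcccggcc
Slc1a3: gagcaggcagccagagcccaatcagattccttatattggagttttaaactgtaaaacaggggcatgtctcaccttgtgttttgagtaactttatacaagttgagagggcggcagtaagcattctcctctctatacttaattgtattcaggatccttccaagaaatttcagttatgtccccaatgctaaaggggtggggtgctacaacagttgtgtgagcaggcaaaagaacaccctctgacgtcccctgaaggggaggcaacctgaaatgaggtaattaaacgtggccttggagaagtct

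Levels between genes were compared per length, in TPM (transcripts scaled to a fixed total) calculated from the counts and the summed exon length of each gene. Glul, which encodes glutamine synthetase, was the most abundant at 2278 ± 302 TPM with AAV2-GFP (SD, n = 5), the 27th highest level of all genes over the 10 libraries. Apoe at 988 ± 182 TPM and Dkk3 at 844 ± 48.2 TPM followed, and the mean of Dkk3 lay within the spread of Apoe. Car2 at 595 ± 46.6 TPM and Clu at 576 ± 191 TPM lay within each other's spread. The membrane proteins were far lower. Aqp4 stood at 89.4 ± 11.5 TPM, Slc1a3 at 72.4 ± 5.45 TPM, Car14 at 60.1 ± 8.29 TPM and Kcnj10 at 55.5 ± 2.94 TPM, the last of these within the spread of Car14. The transcription factor gene Sox9 was lowest at 20.8 ± 2.49 TPM. With AAV206-GFP, Dkk3 (974 ± 53.0 TPM) was listed above Apoe (780 ± 164 TPM) and Car14 (72.7 ± 7.31 TPM) above Slc1a3 (64.0 ± 5.61 TPM).

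The glutamate pair comes first. Slc1a3 (ENSMUSG00000005360; GRCm38 chromosome 15, 8634124 to 8710764, minus strand) encodes GLAST, the main glutamate transporter of Müller glia. Its levels with AAV2-GFP were 137, 138, 172, 156 and 157 CPM in the order of the replicate numbers, and with AAV206-GFP 147, 131, 135, 124 and 120 CPM. In 4 of the 5 AAV206-GFP mice the level was under that of every AAV2-GFP mouse, and AAV206-GFP replicate 1 lay within the AAV2-GFP range. The difference on the log2 scale was -0.21 with a standard error of 0.07 (95% interval -0.37 to -0.053; edgeR adjusted p = 0.0778). It passed the threshold without AAV2-GFP replicate 1 (edgeR adjusted p = 0.0428) and without AAV206-GFP replicate 1 (0.0459), and the adjusted p over all 21 alternatives lay between 0.0428 and 0.172.

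Glul (ENSMUSG00000026473; chromosome 1, 153899944 to 153909723, plus strand) turns the glutamate and ammonia taken up into glutamine. It shares 116 exonic bases with Teddm2 on the other strand and 93 with Mir8114 on its own. The AAV2-GFP mice had 1419, 1821, 2152, 1977 and 1946 CPM, and the AAV206-GFP mice 1850, 1858, 1839, 1577 and 1797 CPM. The lowest and the highest level of the 10 mice were both in the AAV2-GFP group, in replicates 1 and 3. As a log2 fold change this was -0.062 with a standard error of 0.088 (95% interval -0.25 to 0.13; edgeR adjusted p = 0.684). Its value was -0.14 without AAV2-GFP replicate 1 and -0.0062 without AAV2-GFP replicate 3. Within a library the log2 ratio of Glul to Slc1a3 counts, which needs no scaling, averaged 3.61 ± 0.13 in the AAV2-GFP mice and 3.77 ± 0.11 in the AAV206-GFP mice (SD, n = 5), with 3 AAV206-GFP mice above all AAV2-GFP mice.

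Kcnj10 and Aqp4 form the potassium and water outlets of the glial endfeet. Kcnj10 (ENSMUSG00000044708; chromosome 1, 172341210 to 172374085, plus strand) encodes the inward rectifier channel Kir4.1. It was at 71.2, 73.5, 70.6, 76.1 and 76.8 CPM with AAV2-GFP and at 66.6, 70.6, 63.1, 58.7 and 64.9 CPM with AAV206-GFP. Every AAV206-GFP mouse lay under every AAV2-GFP mouse, although the closest pair, AAV206-GFP replicate 2 (70.599 CPM) and AAV2-GFP replicate 3 (70.606 CPM), all but touched. Kcnj10 was the 1 gene of the 10 without overlap, beside 9.78% of all tested genes. The log2 fold change was -0.19 with a standard error of 0.06 (95% interval -0.32 to -0.053; edgeR adjusted p = 0.0649, range over the 21 alternatives 0.0489 to 0.167). No fit that left out a single library brought it past the threshold.

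Aqp4 (ENSMUSG00000024411; chromosome 18, 15389496 to 15410982, minus strand) encodes the water channel aquaporin 4. The AAV2-GFP mice had 135, 107, 156, 155 and 132 CPM and the AAV206-GFP mice 135, 140, 132, 125 and 111 CPM, so that all AAV206-GFP levels lay inside the AAV2-GFP range. Their log2 fold change was -0.092 with a standard error of 0.094 (95% interval -0.29 to 0.11; edgeR adjusted p = 0.557). It was -0.17 without AAV2-GFP replicate 2, and -0.042, -0.045 and -0.042 without AAV2-GFP replicate 3, AAV2-GFP replicate 4 and AAV206-GFP replicate 5. The log2 ratio of Aqp4 to Kcnj10 counts was 0.89 ± 0.23 and 0.99 ± 0.12 (SD, n = 5), and the groups overlapped.

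The carbonic anhydrases interconvert carbon dioxide and bicarbonate, Car2 inside the cell and Car14 at its surface. Car14 (ENSMUSG00000038526; chromosome 3, 95897768 to 95904691, minus strand) was at 31.3, 33.4, 46.9, 37.3 and 39.3 CPM with AAV2-GFP and at 44.6, 49.9, 38.6, 41.3 and 47.7 CPM with AAV206-GFP. Only AAV206-GFP replicates 2 and 5 were above every AAV2-GFP mouse, since AAV2-GFP replicate 3 lay among the AAV206-GFP levels. Without that library Car14 passed the threshold (log2 fold change 0.33, edgeR adjusted p = 0.0419). With all libraries the log2 fold change was 0.24 with a standard error of 0.10 (95% interval 0.015 to 0.45; edgeR adjusted p = 0.151, range over the 21 alternatives 0.0419 to 0.474). Without AAV2-GFP replicate 1 the log2 fold change was 0.18. Car14 carried decimals in all 10 libraries, the mark of reads divided between genes, and shares 445 exonic bases with Aph1a on the other strand. Its level is therefore uncertain. Aph1a itself was at 39.5 ± 2.18 and 38.6 ± 3.66 CPM (SD, n = 5; edgeR adjusted p = 0.827).

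Car2 (ENSMUSG00000027562; chromosome 3, 14886273 to 14900770, plus strand) had 315, 329, 409, 367 and 354 CPM with AAV2-GFP and 329, 351, 355, 325 and 318 CPM with AAV206-GFP, again with all AAV206-GFP levels inside the AAV2-GFP range. Its log2 fold change was -0.080 with a standard error of 0.070 (95% interval -0.23 to 0.069; edgeR adjusted p = 0.484), and it was -0.025 without AAV2-GFP replicate 3. The summed level of 7 erythrocyte genes ranged from 67.8 to 85.8 CPM in AAV2-GFP mice and from 101 to 320 CPM in AAV206-GFP mice. Its part in the Car2 values was not tested. The log2 ratio of Car14 to Car2 counts averaged -3.24 ± 0.09 in AAV2-GFP mice and -2.92 ± 0.18 in AAV206-GFP mice (SD, n = 5), and in 4 AAV206-GFP mice it exceeded every AAV2-GFP mouse.

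Apoe and Clu encode the 2 lipid-carrying apolipoproteins that glia secrete, apolipoprotein E and clusterin. Apoe (ENSMUSG00000002985; chromosome 7, 19696109 to 19699188, minus strand) was at 643, 407, 594, 513 and 441 CPM with AAV2-GFP and at 456, 391, 451, 254 and 455 CPM with AAV206-GFP. The highest level was in AAV2-GFP replicate 1 and the lowest, by far, in AAV206-GFP replicate 4. The log2 fold change of -0.37 had a standard error of 0.15 (95% interval -0.69 to -0.059; edgeR adjusted p = 0.113). It was -0.25 without AAV206-GFP replicate 4 and -0.15 without that library and AAV2-GFP replicate 1, a pair chosen after the values were seen.

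Clu (ENSMUSG00000022037; chromosome 14, 65968483 to 65981547, plus strand) was at 752, 370, 503, 437 and 369 CPM with AAV2-GFP. With AAV206-GFP it was at 403, 384, 406, 360 and 391 CPM, a far narrower range that overlapped the lower AAV2-GFP mice. The log2 fold change was -0.32 with a standard error of 0.15 (95% interval -0.64 to -0.0066; edgeR adjusted p = 0.170), and it was -0.11 without AAV2-GFP replicate 1. Besides the microglia genes given above, that library had a summed level of 548 CPM over 12 gliosis genes, all detected, against 289 to 324 CPM in the other AAV2-GFP libraries and 303 to 364 CPM with AAV206-GFP. The part of either list in the Apoe and Clu values was not tested. The log2 ratio of Apoe to Clu counts averaged 0.13 ± 0.20 in AAV2-GFP mice and 0.014 ± 0.30 in AAV206-GFP mice (SD, n = 5).

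Dkk3 (ENSMUSG00000030772; chromosome 7, 112116017 to 112159057, minus strand) encodes a secreted protein of the Dickkopf family. It was at 718, 621, 731, 735 and 680 CPM with AAV2-GFP and at 812, 782, 838, 734 and 762 CPM with AAV206-GFP. In 4 AAV206-GFP mice the level was above that of every AAV2-GFP mouse, and replicate 4 lay just under the highest AAV2-GFP mouse. On the log2 scale the difference was 0.17 with a standard error of 0.06 (95% interval 0.044 to 0.30; edgeR adjusted p = 0.0759, range over the 21 alternatives 0.0260 to 0.168). Each of the 21 alternatives gave a higher level with AAV206-GFP, and DESeq2 was the 1 of them that brought it past the threshold.

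Sox9 (ENSMUSG00000000567; chromosome 11, 112782224 to 112787760, plus strand) encodes the transcription factor that Müller glia keep from retinal progenitors. Its levels were 18.9, 20.8, 26.4, 19.4 and 20.1 CPM with AAV2-GFP and 16.8, 20.2, 19.1, 17.5 and 21.5 CPM with AAV206-GFP, with wide overlap. The log2 fold change was -0.15 with a standard error of 0.11 (95% interval -0.39 to 0.078; edgeR adjusted p = 0.376). It was -0.060 without AAV2-GFP replicate 3 and lay between -0.25 and -0.060 over the 21 alternatives.

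**Figure D2:**
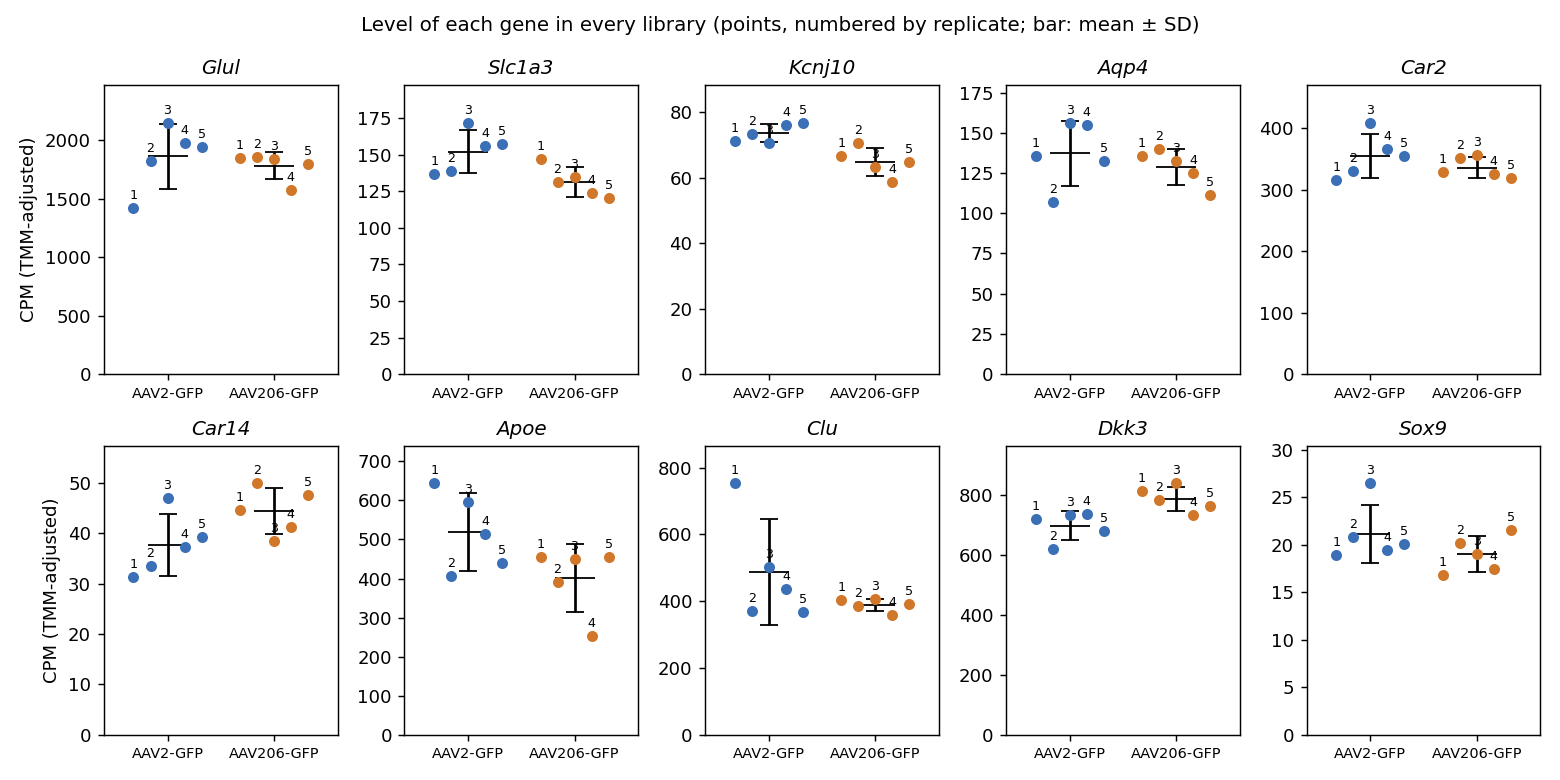
CPM of each gene on a vertical axis that starts at 0, for AAV2-GFP (blue) and AAV206-GFP (orange), with 1 numbered point per mouse, a horizontal bar for the mean and whiskers for the SD (n = 5). Only the groups of Kcnj10 do not overlap, and the AAV2-GFP mice range widely in Clu (369 to 752 CPM) and Glul (1419 to 2152 CPM).

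The mice of the AAV2-GFP group differed more among themselves in these genes than those of the AAV206-GFP group. The coefficient of variation (SD over mean) was larger with AAV2-GFP in 8 of the 10 genes, the exceptions being Kcnj10 (3.80% and 6.79%) and Apoe (19.2% and 21.6%). Its median was 14.5% in the AAV2-GFP group and 7.35% in the AAV206-GFP group. Over the 8068 tested genes in the same range of levels the medians were 8.00% and 8.26%, and 48.3% of those genes varied more with AAV2-GFP. This difference in spread was not tested. Which mouse was highest or lowest differed between genes. AAV2-GFP replicate 3 had the highest level of its group in 6 genes (Glul, Slc1a3, Aqp4, Car2, Car14 and Sox9). AAV2-GFP replicate 1 was highest in Apoe and Clu and lowest in 5 others. Among the AAV206-GFP mice, replicate 4 was lowest in 5 genes. Without AAV2-GFP replicate 3 the median log2 fold change of the 10 genes was -0.051, and it stayed between -0.17 and -0.10 in the fits without any other single library.

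**Figure D3:**
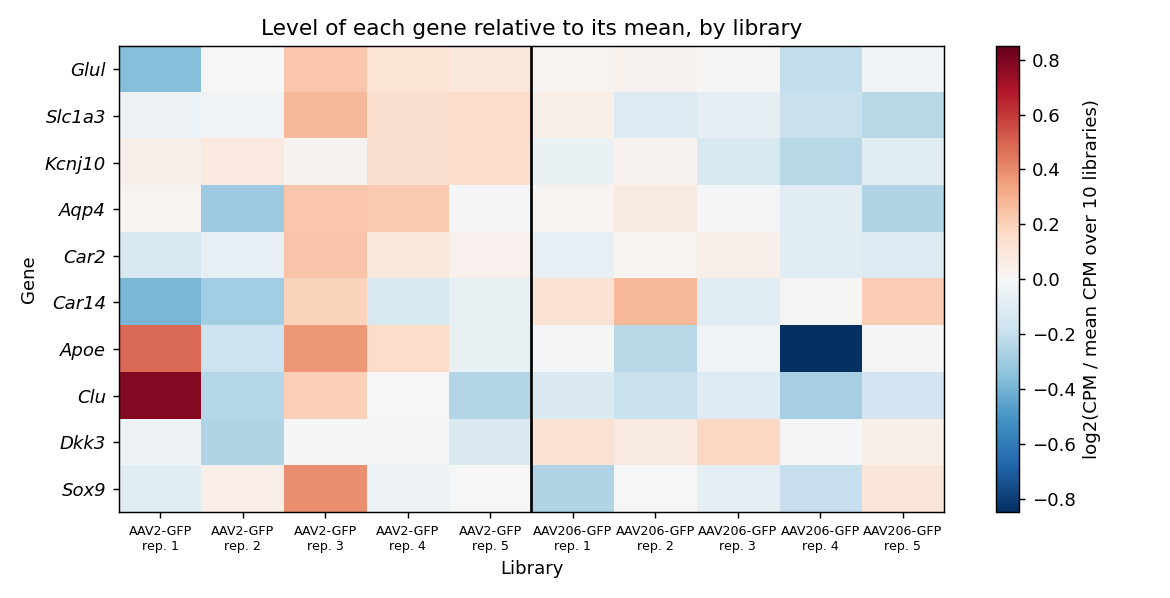
Level of each gene (rows) in each library (columns, AAV2-GFP left and AAV206-GFP right of the line) as log2 of CPM over the gene's mean CPM across the 10 libraries, red for higher and blue for lower. AAV2-GFP replicate 3 is the highest of its group in 6 rows, all red, and is also red in others, such as Apoe and Clu. Replicate 1 of AAV2-GFP is red for Apoe and Clu and blue for Glul and Car14. AAV206-GFP replicate 4 is darkest for Apoe (254 CPM).

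Other genes of the same functions were taken from lists by function, and single genes in them passed the test. Of 11 further Müller glia markers, all tested, 1 rose and 1 fell, beside 5.95% and 5.30% of all tested genes. Their median log2 fold change was -0.18, beside -0.0095 over all tested genes. Crb1, which holds the outer limiting membrane between Müller glia and photoreceptors, rose from 384 ± 35.0 to 474 ± 32.8 CPM (SD, n = 5; log2 fold change 0.30, standard error 0.07, edgeR adjusted p = 0.0132). The groups of Crb1 did not overlap, and it passed in all 21 alternatives. Which cells of the whole retina expressed Crb1 was not tested. Dbi, an acyl-CoA-binding protein, fell from 24.7 ± 3.66 to 18.0 ± 3.78 CPM (log2 fold change -0.46, edgeR adjusted p = 0.0452). Of the fits without 1 library, Dbi passed only without AAV2-GFP replicate 1 or 2 or AAV206-GFP replicate 3. The other 9 missed the threshold. Log2 fold changes were -0.19 for Rlbp1, -0.12 for Abca8a, -0.28 for Vim, -0.18 for Gpr37, -0.43 for Cd9 and -0.24 for Ptn, and 0.051 for Prdx6, 0.11 for Rdh10 and 0.020 for Timp3, which turned below 0 in 5 alternatives. Rlbp1 passed without AAV2-GFP replicate 1 (log2 fold change -0.28, edgeR adjusted p = 0.0249), the library in which it was lowest (197 CPM against 250 to 314 CPM in its group). Cd9 passed in 5 of its 21 alternatives: without AAV2-GFP replicate 2 or 5, with DESeq2, with no filter on low counts and with the replicate number as a block.

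Among 15 glial transcription factor and Notch pathway genes, all tested, 3 fell and 0 rose, beside 5.30% and 5.95% of all tested genes. The median log2 fold change of the 15 was -0.19. Hes5, a repressor that Notch signalling switches on, was at 10.2, 12.6, 13.5, 11.9 and 10.5 CPM with AAV2-GFP and at 5.81, 7.11, 6.21, 3.86 and 6.27 CPM with AAV206-GFP. The groups were well apart, with a log2 fold change of -1.01 and a standard error of 0.16 (edgeR adjusted p = 0.001). Sox8, a close relative of Sox9, fell from 25.9 ± 4.54 to 18.0 ± 2.39 CPM (SD, n = 5; log2 fold change -0.53, edgeR adjusted p = 0.0137). Id3, an inhibitor of basic helix-loop-helix factors, fell from 10.6 ± 1.54 to 6.96 ± 0.86 CPM (log2 fold change -0.61, edgeR adjusted p = 0.0133). All 3 were without overlap between the groups, beside 9.78% of all tested genes, and passed in all 21 alternatives. Sox8 carried decimals in 3 libraries, so its level is less certain. The receptor gene Notch1 and the factors Sox2, Lhx2, Rax and Hes1 missed the threshold (log2 fold changes -0.14, -0.25, -0.19, -0.23 and -0.23, in that order). These 5 were chosen for mention after their values were seen, and Notch1 and Rax carried decimals in 10 libraries.

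The lists around the transporters are read against the 11.2% of all tested genes that passed. Of 10 tested genes of glutamate uptake and the glutamine cycle, 1 fell and 0 rose (median log2 fold change 0.031). That gene was Got1, the cytosolic aspartate aminotransferase, at 317 ± 19.6 and 270 ± 9.55 CPM (SD, n = 5; log2 fold change -0.23, edgeR adjusted p = 0.0171). Got1 passed in 19 of its 21 alternatives and missed the threshold without AAV2-GFP replicate 4 and with the replicate number as a block. Of 14 tested genes of potassium, water and endfoot anchoring, 2 rose and 0 fell (median -0.017). One of them, Sntb2, a syntrophin of the dystrophin complex, had a log2 fold change of 0.29 (edgeR adjusted p = 0.0424) and, among the fits without 1 library, passed without AAV2-GFP replicate 1, 2 or 5 or AAV206-GFP replicate 1.

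Of 10 tested genes of acid-base and lactate transport, 3 fell, beside 5.30% of all tested genes, and 0 rose (median log2 fold change -0.061). Slc16a3, the lactate exporter MCT4, fell from 66.3 ± 11.4 to 45.2 ± 11.9 CPM (SD, n = 5; log2 fold change -0.55, edgeR adjusted p = 0.0299). Bsg, the chaperone of the lactate transporters, and Slc4a2, an anion exchanger, fell by 0.22 and 0.38 on the log2 scale (edgeR adjusted p = 0.0488 and 0.0315), and Slc4a2 carried decimals in 10 libraries. Of the fits without 1 library, Slc16a3 passed without AAV2-GFP replicate 1, 2 or 5 or AAV206-GFP replicate 5, Bsg without AAV2-GFP replicate 1 or 2 or AAV206-GFP replicate 5, and Slc4a2 without either replicate 1.

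Of 12 genes of lipoprotein receptors and lipid export, 2 rose and 2 fell (median log2 fold change 0.020). Of all tested genes 5.95% rose and 5.30% fell. Abca1, which loads cholesterol onto apolipoproteins such as Apoe, was at 91.6, 60.3, 45.4, 52.6 and 60.5 CPM with AAV2-GFP and at 86.6, 97.4, 99.4, 105 and 94.1 CPM with AAV206-GFP. AAV2-GFP replicate 1 was the 1 mouse of its group within the AAV206-GFP range (log2 fold change 0.64, standard error 0.14, edgeR adjusted p = 0.00732). Pltp, which transfers phospholipids between lipoproteins, fell from 19.8 ± 1.34 to 11.3 ± 2.30 CPM (SD, n = 5; log2 fold change -0.81, standard error 0.13, edgeR adjusted p = 0.000858). Pltp had no overlap between the groups and decimals in 9 libraries. Abca1 and Pltp passed in all 21 alternatives. Abca7 had a log2 fold change of -0.30 (edgeR adjusted p = 0.0195) and passed in 18 of its 21 alternatives. It missed the threshold without AAV206-GFP replicate 3 or 4, and with AAV2-GFP library 1 and AAV206-GFP library 4 both left out. Lrp8, named here to complete the count, had 0.21 (edgeR adjusted p = 0.0481).

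Of 14 Wnt antagonist and receptor genes, the list set beside Dkk3, 8 were tested and 1 rose, beside 5.95% of all tested genes that were higher (median log2 fold change 0.045). It was the Wnt co-receptor gene Lrp6, with a log2 fold change of 0.26 (edgeR adjusted p = 0.0359), which passed without AAV2-GFP replicate 1 or 2 or AAV206-GFP replicate 5 among the fits without 1 library. The gliosis list had 12 tested genes and no call in edgeR (median -0.23).

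**Figure D4:**
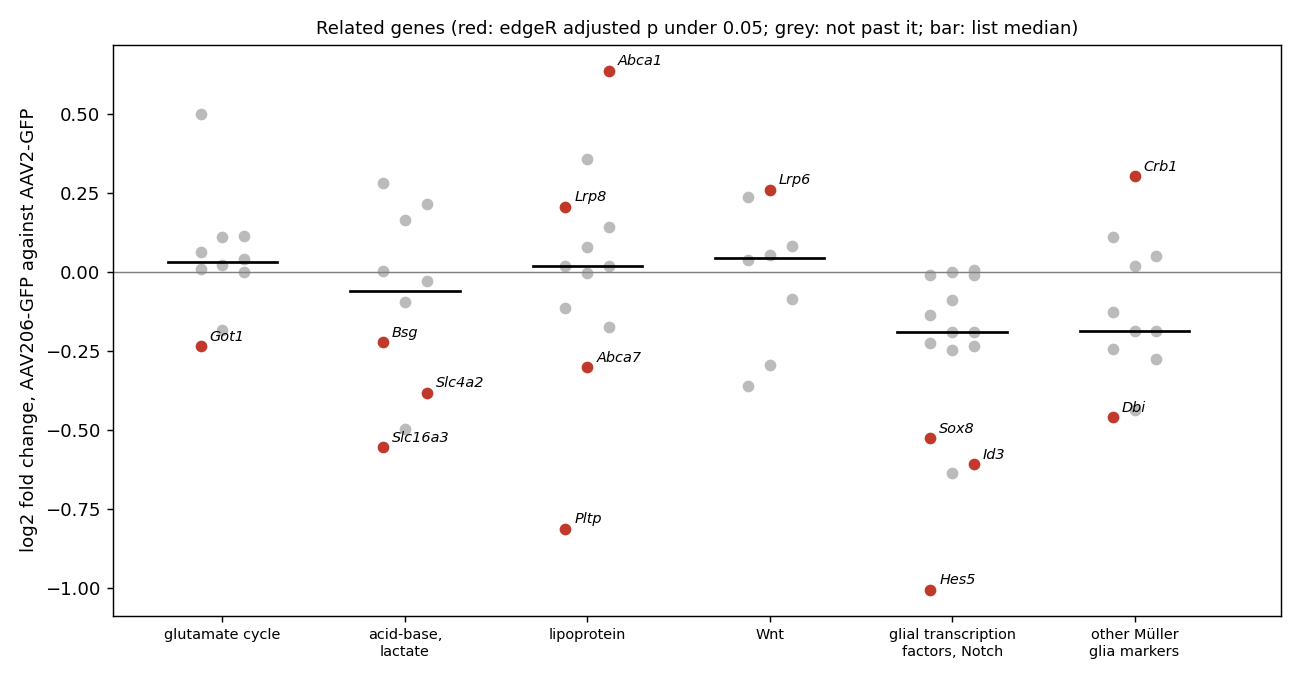
Log2 fold change (AAV206-GFP against AAV2-GFP) of each tested gene in 6 lists of related genes (the potassium and water list is not plotted), with 1 point per gene, red where the edgeR adjusted p-value is under 0.05 and grey elsewhere, and a bar for the list median. Hes5 is lowest at -1.01 and Abca1 highest at 0.64, and the medians lie between -0.19 and 0.045.

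Calls in lists of other cell types are read against all tested genes, of which 5.95% were higher and 5.30% lower with AAV206-GFP. A place on a list does not restrict a gene to that cell type. On the microglia list 2 of 9 tested genes fell (C1qa -2.22, C1qc -2.13, as log2 fold changes). On the pigment epithelium list 1 of 7 fell (Rgr -0.79), and the other 6 missed the threshold, Rpe65 and Lrat among them. On the lens list 2 of 4 fell (Cryaa -2.50, Crybb2 -2.67). On the erythrocyte list 4 of 5 rose (Hba-a2 1.28, Hbb-bs 1.28 and Hba-a1 1.32 among them). Each of these named globin genes carried decimals in 10 libraries, so their single levels are less certain. On the endothelial and pericyte list 1 of 10 rose (Flt1 0.51) and 2 fell (Kdr -0.28, Cldn5 -0.64). With AAV2-GFP, Kdr (154 CPM) and Flt1 (90.7 CPM) stood far above Pecam1 (10.4 CPM) and Cdh5 (6.87 CPM). Pecam1 and Cdh5 missed the threshold, and which cells expressed Kdr and Flt1 was not tested. On the ganglion cell list 1 of 7 genes fell (Pou4f1 -0.37). None passed among 4 astrocyte, 7 oligodendrocyte, 5 horizontal and 6 amacrine genes, and no lymphocyte gene was tested. Of the fits without 1 library, C1qa passed in 5, C1qc in 3, Rgr in 3, Cryaa in 5, Crybb2 in 8 and Cldn5 in 9, and the others named passed in 10. Without AAV2-GFP replicate 1 neither C1qa (log2 fold change -0.95) nor C1qc (-0.97) passed. Without AAV206-GFP replicate 1 the log2 fold change was -4.62 for Cryaa and -4.65 for Crybb2.

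The genes whose profile over the 10 libraries lay closest to the mean of the 10 Müller glia genes were Mpnd, Anp32a, Mmadhc, Sem1 and Dctn3. Likeness was the root-mean-square difference between standardised log2(CPM + 1) values, which was 0.43, 0.43, 0.44, 0.44 and 0.45 for these genes, against a median of 1.08 over the 14948 genes compared. None of the 5 passed the threshold, with edgeR adjusted p-values between 0.123 and 0.552.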

How the data were processed

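RNA of whole retinas was extracted with Trizol, and a NovaSeq instrument gave paired reads of 150 bases, per the labels' protocols. The authors deposited expected counts per gene, not scaled between libraries. STAR 2.7.10b, RSEM 1.3.1 and the build mm10 are named in the submitters' processing notes. The annotation and strand setting are not given in the sources used here. Decimals occurred in 5.95% of values, so the expected counts were rounded to whole numbers for the count tests.

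Libraries were grouped by title. In R 4.3.3, edgeR 4.0.16 kept genes by filterByExpr (minimum count 10), scaled by TMM and fitted a quasi-likelihood F test over all 10 libraries without covariates. P-values were adjusted by Benjamini-Hochberg over 15539 genes (threshold 0.05). The code was tested on simulated data. Standard errors are the log2 fold change over the square root of F. Alternatives used limma 3.58.1 (voom), DESeq2 1.42.0, other scalings and filters, robust dispersions, a replicate block and libraries left out. Symbols and exon lengths came from GENCODE M21 (GRCm38). At these depths 3 counts are 0.232 to 0.274 CPM, a limit that covers counting error only. P-values judge the difference between the vectors against the spread between the mice.

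The 10 genes and all lists were chosen with earlier results of these data known. The text names the 10 genes, up to 3 genes past the threshold with the smallest p-values per list, all further Müller glia markers, and the 5 genes most alike in profile. Some genes chosen by this rule are not reported here. Pairs of libraries of a group differed by more than sampling noise (chi-square per degree of freedom 3.74 to 23.1).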

Additional observations from a re-analysis of the deposited data

Results flagged for a closer look

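In all, 142 group results (genes, summed lists and ratios, in each group of 5) were examined for 1 mouse far from the others, by Dixon's ratio, the gap to the nearest mouse over the group's whole range (critical value 0.71). In this way 17 cases were found. Chance would give about 7.1 if every result were normally distributed, which was not tested and is doubtful for very low levels such as those of Crybb2. The results also overlap: C1qa and C1qc are part of the summed microglia list, and the ratios reuse single genes. Many of the cases come from the same mouse, AAV2-GFP replicate 1, and many genes were included because they passed the threshold in these data. The 17 cases therefore cannot be judged against 7.1.

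Among the 10 Müller glia genes there were 2: Glul in AAV206-GFP replicate 4 (1577 CPM, others 1797 to 1858 CPM, ratio 0.783) and Sox9 in AAV2-GFP replicate 3 (26.4 against 18.9 to 20.8 CPM, ratio 0.743). Both mice stood out in another Müller glia gene, AAV206-GFP replicate 4 in Rlbp1 (205 against 235 to 247 CPM, ratio 0.727) and AAV2-GFP replicate 3 in Dbi (31.2 against 22.5 to 23.9 CPM, ratio 0.837). The log2 ratio of Glul to Slc1a3 was low in AAV2-GFP replicate 1 (3.37 against 3.63 to 3.72, ratio 0.738). The log2 ratio of Apoe to Clu was low in AAV2-GFP replicate 1 (-0.23 against 0.14 to 0.26, ratio 0.751) and in AAV206-GFP replicate 4 (-0.503 against 0.025 to 0.22, ratio 0.733).

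AAV2-GFP replicate 1 was also high in summed gliosis genes (548 against 289 to 324 CPM, ratio 0.866), summed microglia and macrophage genes (313 against 27.6 to 55.1 CPM, ratio 0.904), summed lymphocyte genes (15.9 against 0.269 to 0.726 CPM, ratio 0.971), C1qa (48.6 against 3.42 to 10.7 CPM, ratio 0.840), C1qc (38.6 against 1.98 to 8.07 CPM, ratio 0.834) and Flt1 (97.0 CPM, others 88.7 to 89.8 CPM, ratio 0.864). AAV206-GFP replicate 1 was high in Cryaa (6.31 against 0.0862 to 0.807 CPM, ratio 0.884) and Crybb2 (2.52 CPM against at most 0.339 CPM, ratio 0.866) and low in Sntb2 (258 against 285 to 292 CPM, ratio 0.784). Abca7 was high in AAV2-GFP replicate 2 (84.7 against 72.3 to 73.0 CPM, ratio 0.941).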

How the results depend on the processing

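Over 21 alternatives for each of the 10 genes (210 fits in all), 204 kept the direction and the side of the threshold, 6 moved past it and none reversed. The number of the 10 genes past the threshold was 0 in 17 alternatives, 3 with DESeq2, and 0 to 1 in the 10 fits that left out a library (Slc1a3 without AAV2-GFP replicate 1 or AAV206-GFP replicate 1, Car14 without AAV2-GFP replicate 3). Over all genes 1747 passed, with 991 to 1912 in the fits that left out a library, the counts that moved most being 991 without AAV2-GFP replicate 4, 1056 without AAV206-GFP replicate 4 and 1074 without AAV206-GFP replicate 2. With AAV2-GFP libraries 1 and 4 both left out 985 passed, with fewer samples. With the replicate number as a block 1085 genes passed and 0 of the 10. Over all tested genes, same-numbered mice did not vary together (correlations of deviations -0.052 to 0.040, none above 0.1). A correlation over all genes cannot show whether smaller sets of genes are paired by number. Leaving out AAV2-GFP library 1 with AAV206-GFP library 4 was added after the data were seen. Of 37 other genes (774 fits), 655 results kept their side, 108 no longer passed, 6 newly passed and 5 reversed, all of them Timp3 (log2 fold change of Timp3 -0.025 to 0.062 in the fits without 1 library, -0.0037 without AAV2-GFP libraries 1 and 4). The cause of these changes was not tested. Each of the 10 genes had at least 195 counts per library, and counting error bears most on Sox9, which had that lowest count.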
